A study of Mus musculus with 16 samples.

Results

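The subject was the set of immunoglobulin variable segments read in mouse kidney RNA. Members were the rows of the gene count table whose symbol begins with Ighv, Igkv or Iglv followed by a digit and whose counts sum to at least 100 over 16 libraries. Of 346 variable segments listed in the table, 107 met this minimum: 52 of 183 heavy-chain, 53 of 160 kappa and 2 of 3 lambda segments. The remaining 239 segments held fewer counts, and 105 of them had 0 counts in every library. The 107 members held 43222 counts in all and the segments below the minimum 3348, or 7.19% of all variable-segment counts. Just inside the minimum were Igkv3-1 with 102 counts and Ighv3-8 and Ighv5-12 with 108 each, and just outside were Igkv13-85 with 97 and Ighv1-62-3 with 96.

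The study asked how vitamin B12 acts on the early diabetic kidney. Total RNA was sequenced from 1 kidney sample each of 16 male mice on a C57BL/6J background, in 4 groups of 4 biological replicates. The untreated non-diabetic group (ND_C) and the B12-treated non-diabetic group (ND_B12) were Elmo1H/H Ins2+/+, and the untreated diabetic group (D_C) and the B12-treated diabetic group (D_B12) were Elmo1H/H Ins2Akita/+. B12 was given in the drinking water at 10 mg per kg per day from 8 weeks of age, and kidneys were collected at 16 weeks of age, between ZT7 and ZT9, after a short fast. The Akita allele of Ins2 encodes a proinsulin that misfolds, so that beta cells are lost and blood glucose is high from youth. All groups, controls included, carried the H allele of Elmo1 on both chromosomes, which raises Elmo1 expression above normal, so no group had ordinary Elmo1 expression.

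A B cell builds its antibody genes by joining 1 variable (V) segment to diversity (D, heavy chain only) and joining (J) segments, and each descendant of that cell carries the same joined V exon. The joined gene is transcribed from the promoter of the chosen V segment and spliced to a constant region. A tissue with many B cell lineages therefore yields RNA from many V segments, and a tissue in which 1 lineage of antibody-secreting plasma cells prevails yields RNA mostly from its own heavy and its own light V segment. Plasma cells contain far more immunoglobulin RNA than resting B cells. The kidney holds few of either, in its interstitium and in blood.

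The groups used here are those of the sample labels. A table of group means in the study's supplement matched the counts only under a different assignment of libraries to groups, in which ND_B12 1 stood with the untreated non-diabetic libraries, ND_C 3 and D_C 1 with the B12-treated non-diabetic ones, ND_B12 4 with D_C 2, 3 and 4 as the B12-treated diabetic ones, and the libraries labelled D_B12 were the untreated diabetic ones. Which assignment is right was not tested. Diabetic and non-diabetic values are therefore also given without D_C 1 and ND_B12 4, whose diabetes status differs between the assignments. The direction of each B12 comparison rests on the labels alone. So do the treatment named in each diabetes comparison within 1 treatment, and the interaction. Leaving out D_C 1 and ND_B12 4 does not settle the treatment of the other libraries. The library names also carry a month: all 8 non-diabetic libraries and D_C 1 have month 8, D_C 2 has month 9, D_C 3 and 4 and D_B12 1 and 2 have month 10, and D_B12 3 and 4 have month 11. Month and diabetes cannot be told apart except through D_C 1. Total counts per library ran from 65271308 to 91771136.

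The sequences below show the segments on which the results turn, each beside its nearest neighbour in the reference. Reads were 50 bases long, so how much a segment differs from its neighbour decides how many read positions can be assigned to it. Each sequence is the last 300 bases of the germline V exon in GRCm39, read 5′ to 3′ on the strand of the segment, with the bases that differ within the pair in capitals. Igkv1-110 (chr6:68247952-68248251, plus strand) and Igkv1-117 (chr6:68098512-68098811, plus strand) were the most abundant kappa members and differed at 10 of 300 bases.
Igkv1-110: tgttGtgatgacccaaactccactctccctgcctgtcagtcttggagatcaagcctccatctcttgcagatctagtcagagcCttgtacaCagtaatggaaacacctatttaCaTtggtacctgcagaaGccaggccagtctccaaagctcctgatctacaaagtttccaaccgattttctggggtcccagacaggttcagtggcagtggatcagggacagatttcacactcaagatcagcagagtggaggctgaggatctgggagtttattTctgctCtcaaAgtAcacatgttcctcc
Igkv1-117: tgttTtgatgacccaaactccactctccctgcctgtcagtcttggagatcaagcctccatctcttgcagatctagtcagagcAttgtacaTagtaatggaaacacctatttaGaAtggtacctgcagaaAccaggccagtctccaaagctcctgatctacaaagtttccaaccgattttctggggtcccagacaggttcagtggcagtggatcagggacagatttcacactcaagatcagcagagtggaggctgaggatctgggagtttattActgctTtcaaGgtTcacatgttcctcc
Over these 300 bases they were 96.7% identical, with a longest identical run of 142 bases, and 130 of the 251 windows of 50 bases differed between them. Counts of this pair are therefore given singly and summed. Ighv1-81 (chr12:115883899-115884198, minus strand) was the most abundant heavy member, and its nearest neighbour was Ighv1-85 (chr12:115963648-115963947, minus strand).
Ighv1-81: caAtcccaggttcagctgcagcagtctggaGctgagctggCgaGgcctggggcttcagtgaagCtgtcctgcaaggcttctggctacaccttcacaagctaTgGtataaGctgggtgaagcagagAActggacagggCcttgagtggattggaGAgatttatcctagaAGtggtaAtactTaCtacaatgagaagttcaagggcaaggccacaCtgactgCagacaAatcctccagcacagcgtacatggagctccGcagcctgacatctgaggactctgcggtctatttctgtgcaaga
Ighv1-85: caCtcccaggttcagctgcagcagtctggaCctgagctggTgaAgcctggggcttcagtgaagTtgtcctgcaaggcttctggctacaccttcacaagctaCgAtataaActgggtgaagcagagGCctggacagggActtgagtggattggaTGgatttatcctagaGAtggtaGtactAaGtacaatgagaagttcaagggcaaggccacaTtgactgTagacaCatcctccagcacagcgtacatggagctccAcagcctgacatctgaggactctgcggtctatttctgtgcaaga
This pair differed at 22 bases (92.7% identity), no identical run exceeded 43 bases, and all 251 windows of 50 bases differed. Ighv1-4 (chr12:114450756-114451055, minus strand) had 63.5% of its counts in 1 library, and its nearest neighbour was Ighv1-7 (chr12:114502115-114502414, minus strand).
Ighv1-4: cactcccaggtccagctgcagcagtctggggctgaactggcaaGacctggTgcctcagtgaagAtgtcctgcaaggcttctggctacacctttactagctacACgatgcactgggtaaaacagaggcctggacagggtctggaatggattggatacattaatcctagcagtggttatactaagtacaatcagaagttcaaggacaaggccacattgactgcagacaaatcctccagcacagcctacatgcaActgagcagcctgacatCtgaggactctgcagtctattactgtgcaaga
Ighv1-7: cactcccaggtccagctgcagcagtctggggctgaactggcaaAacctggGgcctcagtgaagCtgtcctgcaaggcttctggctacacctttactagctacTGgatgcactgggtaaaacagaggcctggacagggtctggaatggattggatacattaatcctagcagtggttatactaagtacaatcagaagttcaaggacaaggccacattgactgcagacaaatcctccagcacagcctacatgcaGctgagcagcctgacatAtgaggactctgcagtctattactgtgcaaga
These differed at 7 bases (97.7% identity) and in 153 of 251 windows. Iglv1 (chr16:18903767-18904066, minus strand) and Iglv2 (chr16:19079151-19079450, minus strand) were the only lambda members.
Iglv1: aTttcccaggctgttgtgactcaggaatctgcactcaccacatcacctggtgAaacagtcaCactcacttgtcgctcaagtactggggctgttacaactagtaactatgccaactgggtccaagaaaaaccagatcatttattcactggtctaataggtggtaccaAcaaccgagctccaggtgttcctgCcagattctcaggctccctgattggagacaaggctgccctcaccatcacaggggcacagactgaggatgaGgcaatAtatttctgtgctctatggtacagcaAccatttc
Iglv2: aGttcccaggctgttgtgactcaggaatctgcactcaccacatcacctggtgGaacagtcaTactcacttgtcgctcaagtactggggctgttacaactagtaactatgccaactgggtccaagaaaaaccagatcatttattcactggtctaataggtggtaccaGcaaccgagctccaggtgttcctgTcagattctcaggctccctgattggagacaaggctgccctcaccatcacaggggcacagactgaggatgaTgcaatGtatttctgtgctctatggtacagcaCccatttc
The lambda pair differed at 8 bases (97.3% identity) and in 175 of 251 windows.

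All 107 members are annotated as functional V genes in GENCODE, whereas the 239 segments below the minimum comprise 109 V genes and 130 pseudogenes. The pseudogenes together held 157 counts, and 34 of them had any. The V exon of a member had a median length of 305 bases, and its nearest neighbour among the listed segments had a median identity of 95.6%. For 68 of 107 members the nearest neighbour was at least 95% identical. For the median member 75.0% of its 50-base windows occurred only once, on either strand, in the stretches of chromosome that hold the V segments and their flanks. Members with near-identical neighbours are therefore uncertain one by one, since the counting could split their reads. Iglv1 and Igkv6-17 also share positions with an antisense gene and Igkv2-137 with a gene of its own strand, and strand-specific counting was not stated.

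V promoters are known for an octamer bound by the Oct factors, ATGCAAAT in heavy-chain genes and its reverse complement ATTTGCAT in light-chain genes. Both letter strings were searched, each being the other strand of the other, from 250 bases before to 50 bases after the annotated start. An exact match was found in 84 of 107 members (78.5%), in 83 of the 109 V genes below the minimum (76.15%) and in 58 of the 130 pseudogenes (44.6%). By comparison 44 of 2415 protein-coding genes of chromosomes 6, 12 and 16 had one (1.82%). All 44 heavy members with a match (84.6% of 52) read ATGCAAAT and all 38 such kappa members (71.7% of 53) read ATTTGCAT on the segment's own strand, at a median of 104 and 87 bases before the start. Iglv1 was one of the 2 lambda members with a match, and the 150 bases before its start (chr16:18904251-18904400, minus strand) are shown with the octamer in capitals.
Iglv1: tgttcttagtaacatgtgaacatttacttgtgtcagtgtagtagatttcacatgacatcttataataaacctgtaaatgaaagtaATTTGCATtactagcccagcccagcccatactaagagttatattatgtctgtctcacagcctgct
Igkv1-110: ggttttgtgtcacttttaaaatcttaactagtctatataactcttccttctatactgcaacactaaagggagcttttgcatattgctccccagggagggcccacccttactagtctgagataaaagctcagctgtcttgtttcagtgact
Ighv1-81: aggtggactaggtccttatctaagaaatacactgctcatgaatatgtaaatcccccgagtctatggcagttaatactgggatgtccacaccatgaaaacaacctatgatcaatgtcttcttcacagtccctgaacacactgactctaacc
The windows of Igkv1-110 (chr6:68247319-68247468, plus strand) and Ighv1-81 (chr12:115884333-115884482, minus strand) are shown because these were the most abundant members, and neither holds the exact letters. The median total count of members with and without a match was 252 against 311 for heavy and 276.5 against 293 for kappa segments. The heptamer CACAGTG, at which the recombinase cuts, followed the exon directly in 87 of 107 members (81.3%), in 81 of 109 V genes below the minimum (74.3%) and in 47 of 130 pseudogenes (36.2%). A match is only a description of these letters in these windows.

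V segment RNA was lower in the libraries labelled diabetic, in all 3 classes. Values are normalized counts, that is, estimated counts divided by the library's median-of-ratios size factor, and class totals include the segments below the minimum. The heavy total was 5458, 1726, 1690.0 and 1149 in ND_C libraries 1 to 4, 821, 1840.3, 3429 and 1024 in ND_B12, then 1029, 247, 334 and 598 in D_C, and 322, 199, 236 and 377 across D_B12. The kappa total was 6535, 2432, 2271 and 1501 in ND_C libraries 1 to 4, 1233, 2255, 4566 and 1447 in ND_B12, then 1231, 348, 357 and 645 in D_C, and 369, 260.3, 371 and 476 across D_B12. In both classes ND_C 1 was the highest of all libraries, and the diabetic libraries other than D_C 1 lay below every non-diabetic one. D_C 1 exceeded ND_B12 1 and ND_B12 4 in its heavy total. Its kappa total lay below that of every non-diabetic library, but within 2 normalized counts of ND_B12 1. The lambda total ranged from 95.4 to 386 among ND_C libraries and 84.1 to 209 among ND_B12 libraries, against 27.3 to 80.5 for D_C and 37.7 to 57.2 for D_B12, so no diabetic library reached a non-diabetic one.

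As means ± SD (n = 4 each), the heavy total was 2506 ± 1986 for ND_C, 1778.5 ± 1185 for ND_B12, 552 ± 351 for D_C and 283 ± 80.8 for D_B12. The kappa total was 3185 ± 2270, 2375 ± 1526, 645 ± 414 and 369 ± 88.1 in the same order. The lambda total was 225 ± 129, 145 ± 60.8, 48.1 ± 22.7 and 51.2 ± 9.07. The ratio of the ND_C to the D_C mean was 4.54 for heavy, 4.94 for kappa and 4.68 for lambda segments, and that of ND_B12 to D_B12 was 6.28, 6.44 and 2.84. Without ND_C 1 the first ratio was 2.76, 3.21 and 3.56, and without D_C 1 it was 6.37, 7.08 and 6.03. Over all 8 against 8 libraries the ratios were 5.13, 5.48 and 3.73, and without D_C 1 and ND_B12 4 they were 6.97, 7.36 and 4.35. Within month 8, D_C 1 lay inside the non-diabetic range for heavy segments and just below its lower end for kappa and lambda. These sums over members carry no test. In whole kidney RNA, fewer cells of a type and less RNA per cell cannot be told apart.

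**Figure D1:**
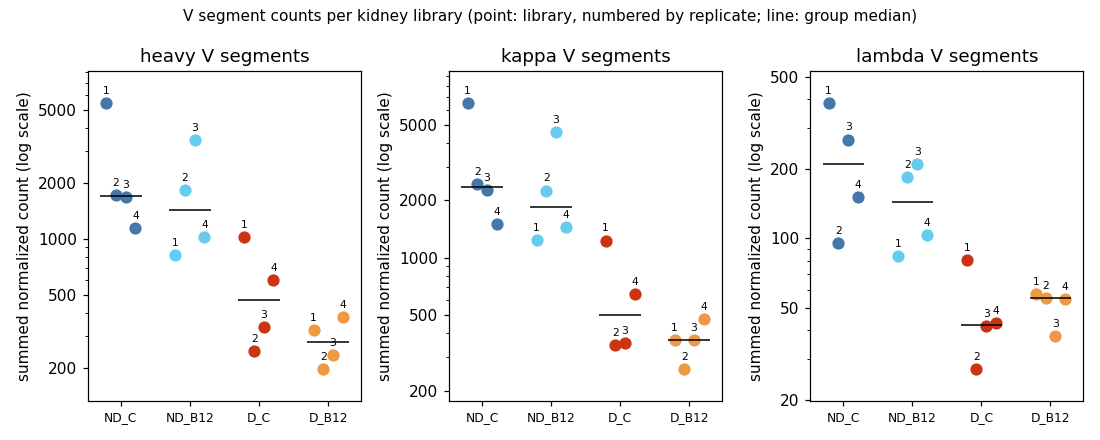
Summed normalized counts of heavy, kappa and lambda V segments (log axis) in each of the 16 libraries, by labelled group, with a line at each group's median. For heavy and kappa segments D_C 1 (1029 and 1231) stands apart from the other diabetic libraries, and for lambda segments all 8 diabetic libraries lie below the 8 non-diabetic ones.

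The leading segment of a library is the member with the most counts in its class, and its share is given of all member counts of that class in that library. Intervals are 95% Wilson binomial intervals and cover counting error only, since reads are not independent molecules. Ighv1-81 led the heavy segments in 10 of 16 libraries, in all 4 groups, and Igkv1-110 led the kappa segments in 11. Iglv1 led the lambda segments in all 16. Dividing by exon length left the leader the same in 16 of 16 libraries for both heavy and kappa segments.

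Heavy and kappa counts were spread over many segments, while Iglv1 held between 68.3% and 100% of the lambda member counts of a library. The heavy leader's share had a median of 12.9% for ND_C (range 9.79 to 25.2), 13.3% for ND_B12 (11.46 to 30.4), 22.6% for D_C (16.7 to 25.6) and 14.7% for D_B12 (11.8 to 31.5). The kappa leader's share had a median of 13.3% (11.4 to 23.5), 18.6% (14.3 to 35.8), 19.4% (16.6 to 31.0) and 19.3% (6.61 to 26.4) in the same order. All 4 groups overlap in both classes. The effective number of segments, the reciprocal of the chance that 2 counts drawn from a library belong to the same segment, had heavy medians of 19.8, 19.0, 12.6 and 17.6 and kappa medians of 18.1, 13.9, 13.9 and 14.3. It ranged from 7.68 to 24.5 over the heavy and from 6.31 to 26.5 over the kappa values of the 16 libraries, and the groups overlap there too. Fewer members were seen at all in diabetic libraries, with a median of 31.5 heavy members with a count in D_C and 28 in D_B12 against 47 in ND_C and 44 in ND_B12, and these libraries also held fewer V counts in which to see them. Thinned to 168 heavy counts, the lowest of any library, the leader's share was 24.9% in ND_C 2, 30.4% in ND_B12 1 and 25.6% in D_C 4, close to the values before thinning.

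**Figure D2:**
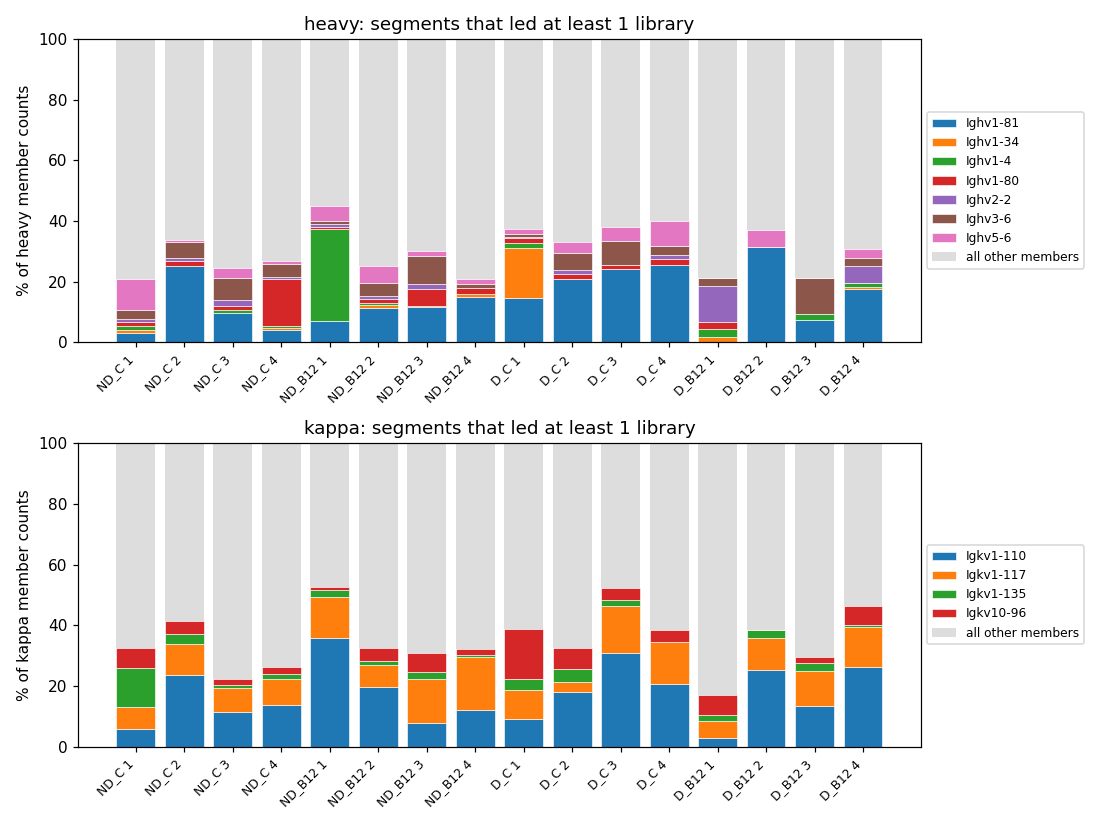
Share of each segment that led at least 1 library, in percent of the heavy (top) or kappa (bottom) member counts of each of the 16 libraries, with all other members in grey. Ighv1-81 and Igkv1-110 lead most libraries, while ND_B12 1 is led by Ighv1-4 at 30.4% of its heavy counts and D_C 1 by Ighv1-34 at 16.7%.

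Some heavy leaders were abundant in 1 library. Ighv1-4 took 207 of the 682 heavy member counts of ND_B12 1, or 30.4% (95% interval 27.0 to 33.9), while its median share in the other libraries was 0.597%. The same library had the highest kappa share of Igkv1-110, 35.8% (33.1 to 38.7) against a median of 13.6% elsewhere. Ighv1-34 took 175 of the 1050 heavy counts of D_C 1, or 16.7% (14.5 to 19.0), and had no count in 8 other libraries. In D_C 1 the kappa leader was Igkv10-96, with 16.6% (14.7 to 18.6) against a median of 4.04% elsewhere, and the same segment led D_B12 1. ND_B12 1 and D_C 1 thus each paired an uncommon heavy leader with a raised kappa share, but whether the 2 chains came from the same cells cannot be read from bulk counts.

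ND_C 1 was the richest library, with 25.1% of all member counts, and had leaders of its own: Ighv5-6 at 10.3% of heavy counts (9.42 to 11.2) and Igkv1-135 at 13.0% of kappa counts (12.1 to 13.8). Of the 843 counts of Ighv5-6 over all libraries 485 were in ND_C 1, as were 481 of 642 for Ighv1-50, 744 of 1112 for Igkv1-135 and 622 of 1080 for Igkv3-4. ND_C 4 was led by Ighv1-80 at 15.5% of heavy counts (13.4 to 17.8) against a median of 1.61% elsewhere. In ND_B12 4, Ighv1-12 held 12.5% of heavy counts (10.5 to 14.7) and Igkv3-7 held 12.1% of kappa counts (10.5 to 13.9), with medians of 0.641% and 0.587% elsewhere. The leaders of the shallow D_B12 libraries rest on few counts: Ighv2-2 led D_B12 1 with 31 counts (11.8%, 8.43 to 16.2) and Ighv3-6 led D_B12 3 with 24 (11.8%, 8.03 to 16.9). In D_B12 1, Igkv10-96 led the kappa segments at 6.61% (4.40 to 9.80), the lowest leading share of any library. Ighv1-81 had 0 of 263 heavy counts there, which allows a share of up to 1.14%.

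Over the 107 members, the library with most of a member's counts held a median of 29.5% of them (range 12.2 to 84.7, the highest for Ighv5-2), and 19 members had over 50% in 1 library. That library was ND_C 1 for 53 members, ND_B12 3 for 19 and a diabetic library for 4, each time D_C 1. Only 9 members had a count in every library, 56 had one in every non-diabetic library, and 38 had 0 counts in at least 4 diabetic libraries. Without ND_C 1, 11 members would not have reached 100 counts. The 8 non-diabetic libraries alone would have brought 98 members to 100 counts and the 8 diabetic libraries alone 12. The members were chosen on summed counts, so segments with most reads in the deeper V libraries are favoured. The diabetic libraries held 18.1% of the counts of members and 20.8% of those of the segments below the minimum.

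Igkv1-110 and Igkv1-117, with the exons shown above, had normalized counts in every library. Igkv1-110 had 352, 549, 248 and 190.0 in ND_C libraries 1 to 4, 431, 405, 337 and 167 in ND_B12, then 111, 59.2, 106 and 132 in D_C, and 9.03, 58.0, 42.3 and 124 across D_B12. Igkv1-117 had 445, 245, 172 and 124 in ND_C libraries 1 to 4, 164, 145, 619 and 239.8 in ND_B12, then 114, 10.3, 52.4 and 87.6 in D_C, and 19.1, 24.5, 35.9 and 60.7 across D_B12. For both, every diabetic library lay below every non-diabetic one. Together they held up to 49.5% of the kappa counts, in ND_B12 1. With segments of at least 95% identity merged, the group with Igkv1-110 and Igkv1-117 led 14 of 16 libraries, and the group holding Ighv1-81 led 8 for the heavy chain.

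Ighv1-81 had 156, 391, 151 and 41.3 in ND_C libraries 1 to 4, 51.3, 191, 354 and 140.2 in ND_B12, then 129.6, 47.0, 72.9 and 143 in D_C, and 0, 48.1, 13.8 and 57.1 across D_B12. Its groups overlap, and D_C 1, D_C 4 and ND_B12 4 are close to each other. Ighv1-53, another member of family 1, had 202, 44.7, 71.4 and 122 in ND_C libraries 1 to 4, 37.1, 64.5, 57.2 and 60.9 in ND_B12, then 13.6, 11.3, 7.11 and 26.6 in D_C, and 19.1, 2.72, 0 and 0 across D_B12. The counts of 0 in D_B12 3 and 4 allow up to 1.47% and 1.12% of their heavy counts. All diabetic libraries lay below all non-diabetic ones for Ighv1-53.

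Iglv1, the usual lambda segment of laboratory mice, had 353, 71.6, 204 and 127 in ND_C libraries 1 to 4, 76.4, 167, 157 and 91.9 in ND_B12, then 80.5, 23.5, 32.9 and 31.8 in D_C, and 57.2, 55.3, 25.8 and 41.3 across D_B12. Its D_B12 libraries lay below all ND_B12 ones, while D_C 1 at 80.5 exceeded ND_C 2 at 71.6. Iglv2 had 33.1, 13.9, 61.2 and 23.99 in ND_C libraries 1 to 4, 7.64, 15.9, 41.0 and 11.6 in ND_B12, then 0, 3.76, 4.44 and 11.2 in D_C, and 0, 0, 11.9 and 13.4 across D_B12. The counts of 0 for Iglv2 in D_C 1, D_B12 1 and D_B12 2 stand against lambda totals of 95, 57 and 61 member counts and allow shares of up to 3.16%, 5.26% and 4.92%.

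**Figure D3:**
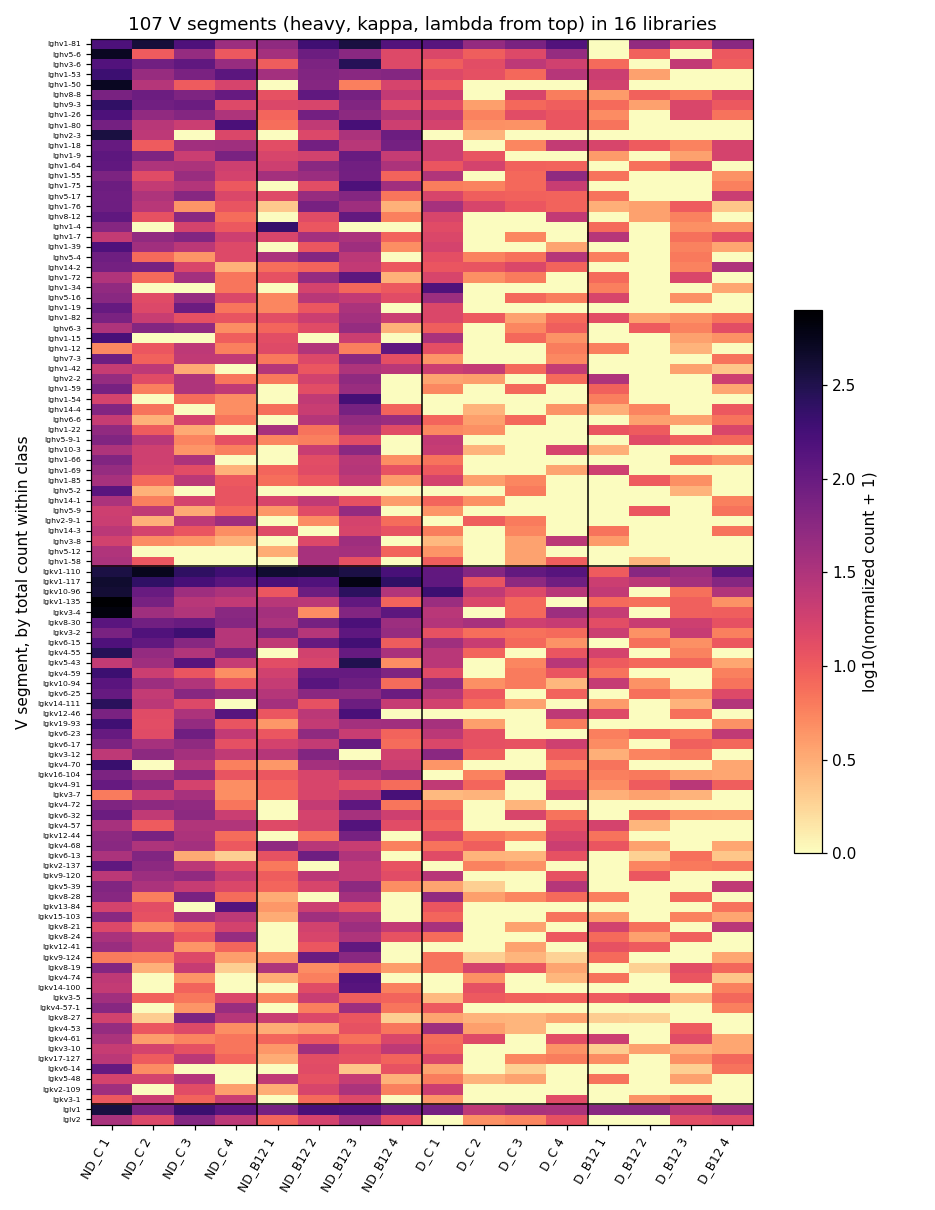
Normalized counts of all 107 members (rows, by class and total count) in each of the 16 libraries (columns, by labelled group), coloured by log10 of the normalized count plus 1. Igkv1-110 and Igkv1-117 have counts in every library, whereas Ighv1-4 and Ighv1-34 are high in ND_B12 1 and D_C 1 respectively.

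By family, a group of V segments of similar sequence that shares the first number of the symbol, Ighv1 held 59.96% of the heavy member counts with 28 members of 92 listed, between 48.3% and 74.5% in single libraries. Ighv5 followed with 13.0%. Among kappa segments Igkv1 held 28.5% with only 3 members of 13 listed (10.5 to 51.6% in single libraries), Igkv4 13.8%, Igkv3 12.1% and Igkv6 11.1%. The median Ighv1 share was 58.0% for ND_C, 65.3% for ND_B12, 65.4% for D_C and 59.2% for D_B12, and the median Igkv1 share was 25.0%, 29.1%, 30.0% and 33%. The 10 most abundant heavy members (Ighv1-81, Ighv5-6, Ighv3-6, Ighv1-53, Ighv1-50, Ighv8-8, Ighv9-3, Ighv1-80, Ighv1-26 and Ighv2-3) held 43.3% of the heavy normalized counts. The 10 most abundant kappa members (Igkv1-110, Igkv1-117, Igkv10-96, Igkv1-135, Igkv3-4, Igkv8-30, Igkv3-2, Igkv6-15, Igkv4-55 and Igkv5-43) held 52.8%. Segments nearer to the J segments than the median listed segment held 43.6% of the heavy counts (38.4% in diabetic and 44.7% in non-diabetic libraries) and 49.25% of the kappa counts (47.5% and 49.6%).

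Diabetes was compared in untreated kidneys (D_C minus ND_C), in B12-treated kidneys (D_B12 minus ND_B12) and as the average of both. Genes were tested by edgeR's quasi-likelihood test in 1 fit of all 16 libraries, with Benjamini-Hochberg adjustment over 25408 genes and a threshold of 0.05. The average shares its libraries with the other comparisons, so they are not independent. Fold changes are on the log2 scale.

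Averaged over both treatments, 29 of 107 members were lower with diabetes and 0 higher, namely 12 heavy, 16 kappa and 1 lambda, where 2.16% of all tested genes were called lower. DESeq2 also called 0 members higher. All 107 estimates were below 0, with a median of −2.67 against 0.0072 over all genes, and 91 had an unadjusted p below 0.05. The choice of members favoured lower diabetic values in all 3 diabetes comparisons, so the shared direction is not separate support. The 8 non-diabetic libraries alone brought 98 members to 100 counts, and the 8 diabetic ones alone 12. The 10 of smallest p were Igkv3-2, Igkv8-30, Ighv1-53, Igkv1-110, Igkv1-117, Ighv8-8, Iglv1, Igkv8-27, Igkv6-25 and Ighv1-80. Igkv3-2 (chr6:70675433-70676051, plus strand) had 73.6, 147, 198 and 26.9 in ND_C libraries 1 to 4, 66.6, 27.8, 116 and 45.5 in ND_B12, then 11.0, 6.58, 6.22 and 6.87 in D_C, and 19.1, 3.63, 20.2 and 4.86 across D_B12. No diabetic library reached the lowest non-diabetic one, and the average change was −3.11 (SE 0.452, edgeR adjusted p = 0.00976). Igkv8-30 (chr6:70094045-70094604, minus strand) had 124, 84.5, 99.7 and 60.5 in ND_C libraries 1 to 4, 32.8, 78.4, 160.4 and 41.6 in ND_B12, then 27.9, 33.8, 17.8 and 20.6 in D_C, and 12.0, 19.9, 18.4 and 10.9 across D_B12. It fell by 2.10 (SE 0.306, edgeR adjusted p = 0.00976), although ND_B12 1 at 32.8 lay just below D_C 2 at 33.8.

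The 2 leading kappa segments, Igkv1-110 and Igkv1-117, fell by 2.13 (SE 0.361) and 2.48 (SE 0.438), each with an edgeR adjusted p of 0.0121. Ighv1-53 fell by 3.10 (SE 0.514, edgeR adjusted p = 0.0121). Ighv8-8 had 74.7, 91.5, 69.1 and 102 in ND_C libraries 1 to 4, 10.9, 112, 78.3 and 22.2 in ND_B12, then 19.5, 0, 15.1 and 5.15 in D_C, and 3.01, 8.16, 5.52 and 13.4 across D_B12. It fell by 2.98 (SE 0.526, edgeR adjusted p = 0.0121), and D_C 1, D_C 3 and D_B12 4 exceeded ND_B12 1 at 10.9. Iglv1 fell by 1.80 (SE 0.334, edgeR adjusted p = 0.0149). Igkv8-27, Igkv6-25 and Ighv1-80 fell by 3.90, 2.84 and 4.06, with edgeR adjusted p of 0.0168, 0.0181 and 0.0182. Among the other leaders Ighv3-6 fell by 2.94 (edgeR adjusted p = 0.0285). Ighv1-81 did not pass, at −1.78 (SE 0.544, edgeR adjusted p = 0.0861), nor did Iglv2 at −2.16 (edgeR adjusted p = 0.0874).

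In untreated kidneys 7 of 107 members were lower and 0 higher, where 0.728% of all genes were called lower. DESeq2 called 11 members lower and 0 higher, where it called 756 of all 25408 genes lower. The 7 edgeR calls were Igkv3-2 (−3.83, SE 0.654), Ighv9-3 (−3.78, SE 0.768), Iglv1 (−2.15, SE 0.473), Igkv8-30 (−1.87, SE 0.421), Igkv2-137 (−4.59, SE 1.06), Ighv1-53 (−2.89, SE 0.679) and Ighv8-8 (−3.06, SE 0.725), with edgeR adjusted p between 0.0245 and 0.0470. Ighv9-3 had 240.1, 83.5, 92.9 and 13.4 in ND_C libraries 1 to 4, 14.2, 14.9, 64.7 and 12.6 in ND_B12, then 11.9, 2.82, 7.11 and 8.59 in D_C, and 7.02, 2.72, 14.7 and 9.72 across D_B12. Its D_C libraries all lay below its ND_C libraries, but ND_C 4, ND_B12 1, 2 and 4 lay near the diabetic values. Of the 107 estimates 104 were below 0, with a median of −2.27 against −0.0034 over all genes, and 63 had an unadjusted p below 0.05. The count of 7 fell to 0 when any 1 of ND_C 2, ND_C 3, D_C 2, D_C 3 or D_C 4 was left out, to 1 without ND_C 1, to 2 without D_B12 2 and to 3 without ND_B12 2, and rose to 16 without D_C 1. Over all genes the 185 called lower became 0 without ND_C 2 and 2 without ND_C 3. They became 21, 20 and 9 without D_C 2, 3 and 4, and 744 without D_C 1. Without ND_C 1, D_B12 2 and ND_B12 2 in turn they became 30, 73 and 63.

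In B12-treated kidneys 3 of 107 members were lower and 0 higher, where 0.563% of all genes were called lower. DESeq2 called 20 members lower and 0 higher, where it called 730 of all 25408 genes lower. The 3 edgeR calls were Igkv8-30 (−2.32, SE 0.444, edgeR adjusted p = 0.0370), Igkv1-110 (−2.54, SE 0.523, edgeR adjusted p = 0.0418) and Igkv1-117 (−3.07, SE 0.641, edgeR adjusted p = 0.0418). Again 104 estimates were below 0, with a median of −2.79 and 65 at an unadjusted p below 0.05. Leaving out a single library gave between 0 and 6 calls. Without any 1 of D_B12 1, 2 or 3, ND_B12 2 or 3, ND_C 1, 2 or 3, or D_C 4, the count was 0, without D_B12 4, ND_B12 1 or D_C 3 it was 1, and without D_C 2 it was 6. Over all genes the 143 called lower became 0 without any 1 of D_B12 1, 2 or 3 or ND_B12 2 or 3. They became 43, 32 and 50 without ND_C 1, 2 and 3, 34 without D_C 4 and 279 without D_C 2. Without D_B12 4, ND_B12 1 and D_C 3 in turn they became 12, 63 and 83.

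Counts of members without overlap between groups are another reading of the same normalized counts. The 8 non-diabetic libraries alone brought 98 members to the minimum of 100 counts and the 8 diabetic ones 12. The choice of members thus favoured lower diabetic values, here and in the tests above. All D_C libraries lay below all ND_C libraries for 20 of 107 members (4.58% of all genes), and all D_B12 libraries below all ND_B12 libraries for 18 (6.57%). All 8 diabetic libraries lay below all 8 non-diabetic ones for 5 members, Igkv1-110, Igkv1-117, Igkv3-2, Ighv1-53 and Ighv1-64 (0.331% of all genes). With D_C 1 and ND_B12 4 left out, 61 members were called lower in the average comparison. In kidneys labelled untreated and B12-treated 22 and 9 were called lower, and those treatments still rest on the labels. Calls rose over all 25408 genes as well, from 548 to 1325, from 185 to 938 and from 143 to 417 lower. With the month in the library name as a covariate, 0 members were called by edgeR in any of the 3 comparisons, and the average estimate, which then rests on D_C 1 for its diabetic side within month 8, had a median of −1.85 with 11 members at an unadjusted p below 0.05. For the average of 29 calls, the counts without 1 library were 11 without ND_B12 3, 13 without ND_B12 2, 15 without D_B12 3, 18 without any 1 of D_B12 1, D_C 2, ND_C 2 or ND_C 3, 19 without D_C 4 or ND_C 1, 44 without ND_B12 4 and 46 without D_C 1. Over all genes the 548 called lower became 191 without ND_B12 3 and 173 without ND_B12 2. They became 843 without ND_B12 4 and 952 without D_C 1. Without D_B12 3 they became 204, and without D_C 4 and ND_C 1 in turn 323 and 352. Without D_B12 1, D_C 2, ND_C 2 and ND_C 3 in turn they became 211, 288, 234 and 236.

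**Figure D4:**
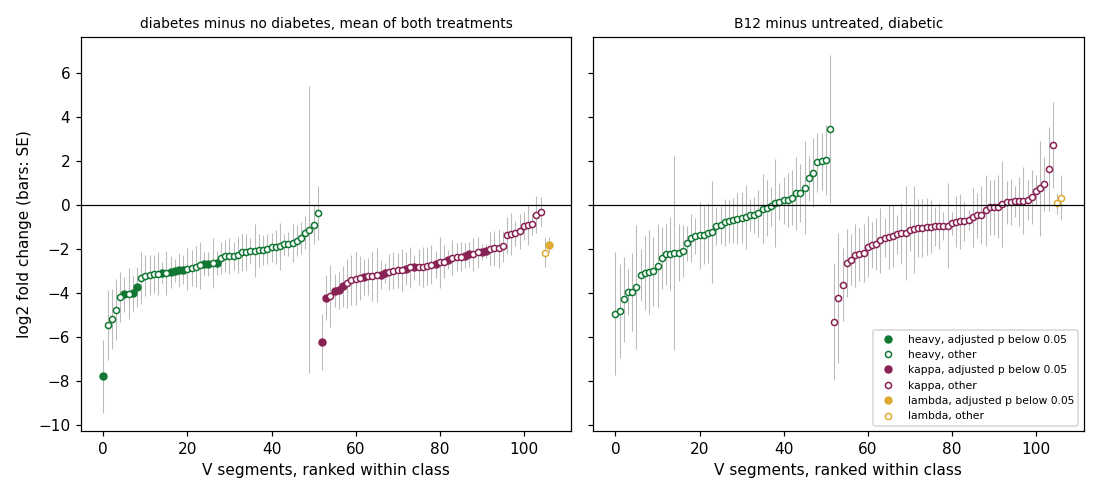
Estimated log2 fold changes (bars: SE) of the 107 members, ranked within heavy, kappa and lambda, for diabetes averaged over both treatments (left) and for B12 in diabetic kidneys (right), with filled points at an adjusted p below 0.05. All 107 estimates for diabetes lie below 0 and 29 points are filled, while 78 of those for B12 lie below 0 and 0 are filled.

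No member was called for B12. In non-diabetic kidneys (ND_B12 minus ND_C) edgeR called 0 of 107 (0.0% of all genes), with 6 at an unadjusted p below 0.05, and DESeq2 called 0, with 5 adjusted p not given. The median estimate was −0.59 with 74 below 0, and it was 0.18 without ND_C 1. No member had all ND_B12 libraries below all ND_C libraries, against 2.16% of all genes. Under the supplement's assignment the libraries compared here would also change, in both groups, and that comparison was not tested.

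In diabetic kidneys (D_B12 minus D_C) edgeR again called 0 of 107 (0.0% of all genes), with 8 at an unadjusted p below 0.05, and DESeq2 called 0, with 87 adjusted p not given. The median estimate was −0.90 with 78 below 0, and it was −0.14 without D_C 1. The smallest adjusted p was that of Ighv1-42, at −3.95 (SE 1.05, edgeR adjusted p = 0.127). Ighv1-42 had 20.3, 23.9, 2.27 and 0 in ND_C libraries 1 to 4, 27.3, 9.93, 31.1 and 25.1 in ND_B12, then 18.6, 21.6, 7.11 and 21.5 in D_C, and 0, 0, 2.76 and 1.21 across D_B12, so that all 4 D_B12 libraries lay below all 4 D_C libraries. This held for 3 members (Ighv1-42, Igkv6-17 and Igkv8-27), a share near the 3.18% of all genes for which it held, and the reverse order held for 0 members (3.4% of all genes). Ighv1-81 was at −1.74 (SE 0.801, edgeR adjusted p = 0.351). Within month 10, which holds libraries of both groups, the heavy total was 334 and 598 in D_C 3 and 4 against 322 and 199 in D_B12 1 and 2. The kappa total there was 357 to 645 against 260.3 to 369, and the lambda total was 41.8 to 43.0 against 55.3 to 57.2. If the supplement's assignment held, the direction of this comparison would not be that of the labels.

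The interaction, the difference between the effects of diabetes with and without B12, was called for 0 members (0.0% of all genes), with 3 at an unadjusted p below 0.05 and 0 by DESeq2, with 81 adjusted p not given. Ighv1-42 had the smallest edgeR adjusted p, 0.0973, at −4.95. The median estimate of −0.41 became 0.34 without D_C 1 and 0.29 without ND_B12 3.

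V segments are joined to constant region genes. Of 11 of these tested (Ighe had too few counts), 6 were lower in the average comparison and 0 higher, with a median of −2.40, where 2.16% of all genes were called lower. Igkc, the kappa constant region, fell by 2.40 (edgeR adjusted p = 0.0116), Igha, of IgA, by 1.94 (0.0117), Ighm, of IgM, by 2.57 (0.0178), and Iglc1, which joins Iglv1, by 1.75 (0.0178), all adjusted by edgeR. Ighg1 and Ighg3, of IgG subclasses, fell by 4.77 and 3.78 with edgeR adjusted p of 0.0301 and 0.0397. Ighd, of IgD, was at 0.06 (edgeR adjusted p = 0.943), and Ighg2b, Ighg2c, Iglc2 and Iglc3 did not pass, at −2.78, −2.78, −1.56 and −1.06. In untreated kidneys 2 passed, Igkc and Iglc1, and in B12-treated kidneys Igkc and Igha. Of 14 J segments listed 9 could be tested, and all 9 were lower in the average comparison, 2 in untreated and 1 in B12-treated kidneys. None of the 20 D segments had enough counts to test.

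The ratio of V to constant normalized counts varied far less between libraries than the totals did. For heavy segments it had medians of 0.228 for ND_C, 0.232 for ND_B12, 0.212 for D_C and 0.177 for D_B12, and its range in D_B12 (0.147 to 0.202) lay below that in ND_B12 (0.214 to 0.244). For kappa segments over Igkc the medians were 0.609, 0.632, 0.595 and 0.555, and the groups overlap. Lambda segments made up 3.78% to 17.5% of light-chain V normalized counts. Their median share was 7.35% for ND_C, 6.53% for ND_B12, 6.76% for D_C and 11.9% for D_B12, and D_B12 (9.23% to 17.5%) did not overlap with ND_B12 (4.38% to 7.57%) but did with D_C and ND_C. Igha made up 41.0% to 89.96% of heavy constant region normalized counts, with medians of 68.7%, 65.9%, 75.0% and 77.0%, and the groups overlap.

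**Figure D5:**
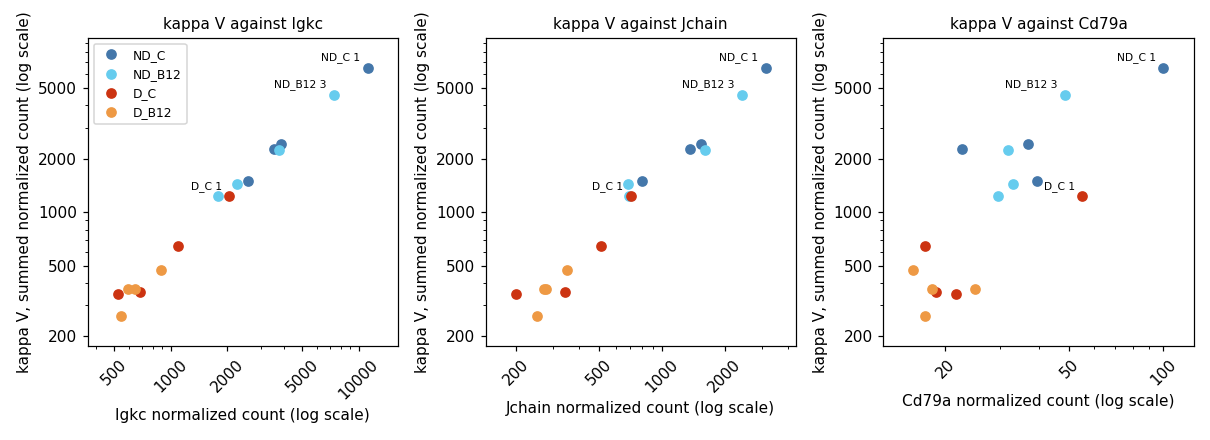
Summed normalized counts of kappa V segments against normalized counts of Igkc, Jchain and Cd79a in the 16 libraries, coloured by labelled group (both axes log). Low Igkc and Jchain counts go with low kappa V counts, and ND_C 1 and D_C 1 have the highest Cd79a (100.3 and 55.1).

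Jchain, which links the units of IgA and IgM in plasma cells, was called lower in all 3 diabetes comparisons and fell by 2.09 on average (SE 0.330, edgeR adjusted p = 0.0116). It was 3138, 1532, 1356 and 805 in ND_C libraries 1 to 4, 690.0, 1597, 2429 and 689 in ND_B12, then 708, 198, 341 and 509 in D_C, and 272, 252, 278 and 351 across D_B12. It was the only 1 of 9 tested plasma cell genes to pass (Tnfrsf17 was not tested), and the median of the list was −0.49. In the average comparison 8 of the 9 estimates were below 0, with Sdc1 at 0.089 the exception. Pou2af1 lay just outside the threshold, at −1.90 (edgeR adjusted p = 0.0510). No surface marker of B cells passed. Of 12 B cell genes edgeR called 0 in any comparison, with a median of −0.57 in the average comparison. Cd79a, part of the B cell receptor, was at −0.86 (edgeR adjusted p = 0.141), and Ms4a1, which encodes CD20, was at −0.65 (edgeR adjusted p = 0.443).

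The summed normalized counts of the 12 B cell genes were 969.8 in ND_C 1, 713 in D_C 1 and between 337 and 523 in the other 14 libraries. The high V totals of ND_C 1 and, among diabetic libraries, of D_C 1 came with high B cell marker counts. ND_B12 3, second highest in its heavy and kappa totals, had a B cell sum of 491. That was the highest of ND_B12 (median 421), though below the sums of ND_C 1 and D_C 1. The part of these cells in the V values was not tested. Of the genes of V(D)J recombination and B cell precursors, Rag1 had no count in any library, Vpreb1 and Vpreb2 were not analysed here, and Vpreb3, the 1 gene of 7 with enough counts, did not pass. Of 11 T cell genes 1, Cd3g, was lower (−1.18, edgeR adjusted p = 0.0475), and the median was −0.56. Genes of lymph node and spleen stroma did not pass (0 of 5 tested, median 0.19, Fdcsp not analysed here and Madcam1 not tested), nor did those of red blood cells (0 of 5, median −0.22) or fat around the kidney (0 of 5, median 0.34). Of 8 kidney tubule and podocyte genes, Slc34a1 fell by 0.25 and Aqp2 rose by 1.14, with a list median of −0.13. Their summed normalized counts lay between 899530 and 1151800 in every library, as for whole kidney.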

How the data were processed

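Kidney RNA was extracted as total RNA, made into Watchmaker Total RNA libraries and read as pairs of 50 bases. The authors aligned the reads with STAR to GRCm39 with GENCODE vM35 and deposited estimated counts per gene from StringTie and its prepDE script, given as whole numbers. The processing notes of the submitters also name bcl2fastq 2.20.0, DESeq2 and limma. The deposited transcript table was not used. StringTie divides reads among overlapping or near-identical segments by its own estimate, which affects similar V segments, and no base-level reads or junctions were used.

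Columns were matched to libraries by library name and groups taken from the labels. B12 treatment lasted 8 weeks by the methods and 16 weeks by the labels. Genes with at least 100 counts in all (25408 of 57186) were tested in R 4.3.3 with edgeR 4.0.16 (glmQLFit and glmQLFTest, TMM, 1 mean per group, 12 residual degrees of freedom, Benjamini-Hochberg threshold 0.05). The common biological coefficient of variation was 0.201. DESeq2 1.42.0, other filters, normalizations and covariates, and left-out libraries were tried as alternatives. The script was tested on simulated counts. Total counts of 65271308 to 91771136 per library leave 168 to 4729 heavy member counts, so shares of single segments are coarse in D_B12. Wilson intervals and the limit of 3 counts behind a count of 0 cover counting error only. Sequences and coordinates came from the GRCm39 genome and a later GENCODE annotation of the same build, and all 346 segments matched by gene identifier. The members, the gene lists and the tests were chosen with earlier results of these data known. Named segments were the leaders of each library, the 10 most abundant heavy and kappa members, all lambda members, those past the threshold (at most 10 per comparison, by p) and those beside the minimum. Ighv1-12, Ighv1-42, Ighv1-64, Ighv5-2, Igkv3-7 and Igkv6-17 were named after their values were seen, and Ighv1-7 and Ighv1-85 as nearest neighbours. The values of 1 gene of the B cell list are not reported here.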

Additional observations from a re-analysis of the deposited data

Results flagged for a closer look

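Of 108 values checked within a group of 4, 16 had 1 library far from the other 3 by Dixon's test. The values were class totals, named segments, and the leader's share and effective number of heavy and kappa segments. None of the shares or effective numbers was flagged. Segments were checked partly because they led a library, so this count cannot be set against the test's nominal rate of about 1 in 20. Values are normalized counts, with the nearest other library of the group beside them. In ND_C, replicate 1 stood apart for the heavy total (5458, nearest 1726), Ighv1-34 (50.1, nearest 5.76), Ighv5-6 (517, nearest 46.4) and Igkv1-135 (794, nearest 76.5).

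In ND_B12, replicate 1 stood apart for Ighv1-4 (226, nearest 9.93), and replicate 3 for Ighv1-80 (171.6, nearest 22.8) and Ighv9-3 (64.7, nearest 14.9). In D_C, replicate 1 stood apart for Ighv1-34 (148.2, nearest 0), Ighv1-4 (12.7, nearest 0), Igkv10-96 (199.1, nearest 25.8), Igkv3-2 (11.0, nearest 6.87) and Iglv1 (80.5, nearest 32.9), and replicate 4 for Ighv5-6 (46.4, nearest 14.4). In D_B12, replicate 3 was low for the lambda total (37.7, nearest 54.7), and replicate 1 was high for Ighv1-53 (19.1, nearest 2.72) and Ighv1-80 (6.02, nearest 0). These 5 segments of D_C 1 came with the high B cell marker counts of that library, whose part in them was not tested. Which cells the RNA of a segment with 1 high library came from was not tested either.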

How the results depend on the processing

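Counts of members called lower with diabetes depended on the fit, while the direction of the medians did not. In untreated kidneys the 7 calls became 1 with all genes of at least 1 count tested, 4 with the compared groups fitted alone, 11 with DESeq2 (81 adjusted p not given), 0 with the month in the library name as a covariate and 22 without D_C 1 and ND_B12 4. Over all tested genes the 185 called lower became 30, 75, 756, 2 and 938 in the same order. In B12-treated kidneys the 3 calls became 0 with all genes of at least 1 count, 20 with DESeq2 (67 not given), 0 with month, 0 with upper-quartile normalization and 9 without those 2 libraries. Over all tested genes the 143 called lower became 29, 730, 3, 10 and 417 in the same order. The average comparison went from 29 to 0 with month and 61 without those 2 libraries, with 39 by DESeq2 (46 not given). Over all tested genes it went from 548 called lower to 0, 1325 and 1130 in the same order. With the replicate number as a block, the calls were 4, 0 and 24 in these 3 comparisons, and 0 in each B12 comparison and the interaction. Over all tested genes those called lower with diabetes were then 132, 16 and 356. Deviations of libraries with the same number correlated between −0.114 and 0.146, so the numbers were not taken to pair mice. Leaving out 1 library gave 0 to 16 calls in untreated, 0 to 6 in B12-treated and 11 to 46 in the average comparison, and 0 in both B12 comparisons and the interaction. Over all tested genes, those called lower with diabetes then ran from 0 to 744, 0 to 279 and 173 to 952. The median share of the leading heavy segment moved between 10.3% and 15.5% in ND_C, 11.6% and 14.9% in ND_B12, 20.9% and 24.3% in D_C, and 11.8% and 17.6% in D_B12 when 1 library was left out. For kappa segments it moved between 13.0% and 13.6%, 17.4% and 19.8%, 18.1% and 20.7%, and 13.5% and 25.1%. With segments of at least 95% identity merged, the kappa median was 20.8% for ND_C, 28.2% for ND_B12, 27.9% among D_C and 30.3% among D_B12 libraries, against 13.3%, 18.6%, 19.4% and 19.3%, because Igkv1-110 and Igkv1-117 then count as 1. With month as a covariate the average estimate for Ighv1-34 was 5.95, that for Ighv1-4 0.95 and that for Igkv10-96 0.32, against −0.37 for Ighv1-34 and other negative values without it. Leaving out 1 library gave −4.48 (without D_C 1) to 0.99 (without ND_C 1) for Ighv1-34. For single named segments, 172 of the other alternatives kept direction and side of the threshold, 47 lost the call, 7 gained it and 3 reversed direction. With 1 library left out, 345 kept both, 96 lost the call, 6 gained it and 1 reversed direction. Except where a setting itself tests more genes or uses fewer libraries, the cause was not tested. The 168 to 267 heavy counts of a D_B12 library limit what a share can show.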
